A study of Rattus norvegicus with 26 samples.

Results

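Arc, Egr1, Egr3, Egr4, Fosl2, Junb, Npas4, Nptx2, Nr4a1 and Nr4a3 are genes whose transcription neurons switch on when they become active. Their transcripts were followed in the hippocampus of 26 aging rats that had eaten 3 amounts of vitamin D3. Members were chosen by gene symbol, as the probe sets of the array whose single gene symbol is 1 of these names. All 10 were measured, out of 14506 genes with a symbol of their own, and all 10 passed the intensity filter, as did 8485 genes in all. Fosl2 had 2 probe sets and the others 1 each, and the probe set with the highest mean stood for a gene.

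The animals were male F344 rats, an inbred strain, aged 18 months. They had eaten a purified AIN-93G diet for several months. It held 100 IU of vitamin D3 (cholecalciferol) per kg in the low diet, with 8 rats, 1000 IU in the control diet, with 9 rats, and 10000 IU in the high diet, with 9 rats. RNA of the hippocampus of each rat was hybridised to 1 Affymetrix Rat Gene 1.0 ST array, so each rat is 1 sample. Housing was in pairs, with a tail mark to tell cage mates apart. A label in the array descriptions was read as the cage, although it is not stated outright there to be one. Read so, it gave 14 cages, 12 of them with both rats. All results on cages and cage mates below rest on this reading. The comparison of diets asks whether the dietary amount of the vitamin goes with a different level of these transcripts. The spread between rats within a diet shows how far the transcripts vary together.

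Transcription of most of these genes starts within minutes of synaptic activity, from transcription factors that are already present in the cell. Calcium entering through NMDA receptors and L-type calcium channels activates kinases. These act on CREB, on serum response factor with its partner ELK1, and on MEF2. Most members are transcription factors themselves, while Arc and Nptx2 act at synapses. In the hippocampus, the level of such transcripts is widely read as a sign of recent neuronal activity, since learning and seizures raise it. Because the tissue was measured whole, a change in the number of expressing cells and a change in RNA per cell cannot be told apart.

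Promoters were available for 7 members in the RefSeq table of build GRCr8, as 250 bases before and 50 bases after 1 annotated start of a gene. The windows of Npas4 and Nr4a1 lie inside the outer bounds of these genes. Those bounds are chromosome 1, 211710640 to 211728038, and chromosome 7, 134247153 to 134268044. Other starts of Npas4 and Nr4a1 were not searched. The 4 printed here belong to Egr1, Junb and Nr4a1, which varied together between rats, and to Npas4, which varied most. On the plus strand lie the windows of Egr1 (chr18:26736828-26737127), Junb (chr19:40080876-40081175) and Nr4a1 (chr7:134259888-134260187). The window of Npas4 (chr1:211716053-211716352) lies on the minus strand. Each is written 5′ to 3′ on the strand of the gene. Capitals mark 3 kinds of match on either strand: the TGACG core of a cAMP response element, to which CREB binds, the CArG box, to which serum response factor binds, and GCGNGGGCG, the site of the EGR proteins.
Egr1: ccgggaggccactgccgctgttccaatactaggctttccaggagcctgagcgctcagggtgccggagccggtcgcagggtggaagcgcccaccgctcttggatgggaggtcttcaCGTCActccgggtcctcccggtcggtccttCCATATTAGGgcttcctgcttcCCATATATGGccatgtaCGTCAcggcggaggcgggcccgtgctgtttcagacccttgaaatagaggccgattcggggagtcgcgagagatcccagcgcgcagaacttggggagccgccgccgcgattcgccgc
Junb: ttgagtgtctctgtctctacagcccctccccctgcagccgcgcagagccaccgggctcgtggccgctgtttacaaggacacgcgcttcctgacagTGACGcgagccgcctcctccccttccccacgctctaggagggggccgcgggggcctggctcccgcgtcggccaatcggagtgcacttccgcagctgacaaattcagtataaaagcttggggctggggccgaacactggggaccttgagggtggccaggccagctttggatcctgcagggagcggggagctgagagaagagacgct
Nr4a1: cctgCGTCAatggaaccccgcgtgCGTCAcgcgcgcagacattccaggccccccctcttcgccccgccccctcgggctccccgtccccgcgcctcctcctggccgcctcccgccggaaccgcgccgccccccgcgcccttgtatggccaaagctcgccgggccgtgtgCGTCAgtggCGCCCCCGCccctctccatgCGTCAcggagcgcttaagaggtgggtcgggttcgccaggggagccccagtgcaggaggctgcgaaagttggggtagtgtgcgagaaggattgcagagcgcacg
Npas4: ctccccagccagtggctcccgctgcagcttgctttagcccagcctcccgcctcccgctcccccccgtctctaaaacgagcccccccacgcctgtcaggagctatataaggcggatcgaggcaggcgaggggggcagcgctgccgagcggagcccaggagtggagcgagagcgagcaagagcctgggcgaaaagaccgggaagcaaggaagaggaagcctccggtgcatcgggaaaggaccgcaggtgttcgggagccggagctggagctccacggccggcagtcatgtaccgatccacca
TGACG stood in 5 of the 7 member promoters, those of Egr1, Egr4, Junb, Nptx2 and Nr4a1, and in 21.96% of all 27457 promoters of the same length. The Nr4a1 window held 4 such cores, beginning at positions -246, -226, -82 and -53 relative to the start. The full palindrome TGACGTCA, which contains the core, stood in 0 of the 7 and in 1.91% of all promoters. CArG boxes stood in the Egr1 window only, at positions -105 and -83, and in 1.64% of all promoters. GCGNGGGCG stood in the windows of Fosl2, Nptx2 and Nr4a1 and in 5.29% of all promoters. TATAAA stood in the Junb window at position -49 and in 14.26% of all promoters. The AP-1 site TGANTCA stood in 0 of the 7 and in 7.33% of all promoters. In the Npas4 window none of these 6 patterns was found on either strand. The 7 windows held from 64.7% (Egr1) to 72.3% (Nr4a1) of G and C, against a median of 52.3% over all promoters. The shares over all promoters were not matched for this content, so the counts cannot show enrichment.

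The arrays resembled each other closely, with medians between 6.92 and 6.96 log2. The array of control rat 17 had the lowest mean correlation with the other arrays, 0.9935, and shared the lowest quality weight, 0.474, with low rat 7. High rat 19 (correlation 0.9943, weight 0.543) and low rat 7 (correlation 0.9949) were next lowest in correlation. Results that rest on control rat 17 are given with and without it. All 8 neuron markers, all 6 measured CA1 markers, 4 of 5 measured dentate gyrus markers and all 5 measured CA3 markers passed the intensity filter. Values below are log2 intensities, and since probes differ in brightness, levels are compared between rats and never between genes. The number of arrays limits the precision.

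In limma's moderated tests over all genes, 0 of the 10 members were called between the diets. The threshold for a call was a Benjamini-Hochberg adjusted p under 0.17, the stricter false discovery rate of the series design. At that level the F-test over the 3 diets called 0% of all genes, and 0% were called for high minus low, for high minus control and for low minus control. At an unadjusted p under 0.05 the F-test held 1 member, Fosl2, or 1 in 10, against 4.62% of all genes. For high minus low it was again Fosl2 alone, against 7.22% of all genes, and for high minus control Fosl2 alone, against 4.63%. For low minus control there were 0 members, against 2.27%. The members' differences were spread around 0. High minus low was positive in 6 and negative in 4 members, with a median of +0.011 log2 against +0.0053 over all tested genes. High minus control was positive in 7 and negative in 3, with a median of +0.010 against +0.0004. Low minus control was positive in 4 and negative in 6, with a median of -0.005 against -0.0043. These 3 comparisons share their groups and so are not independent of each other.

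**Figure D1:**
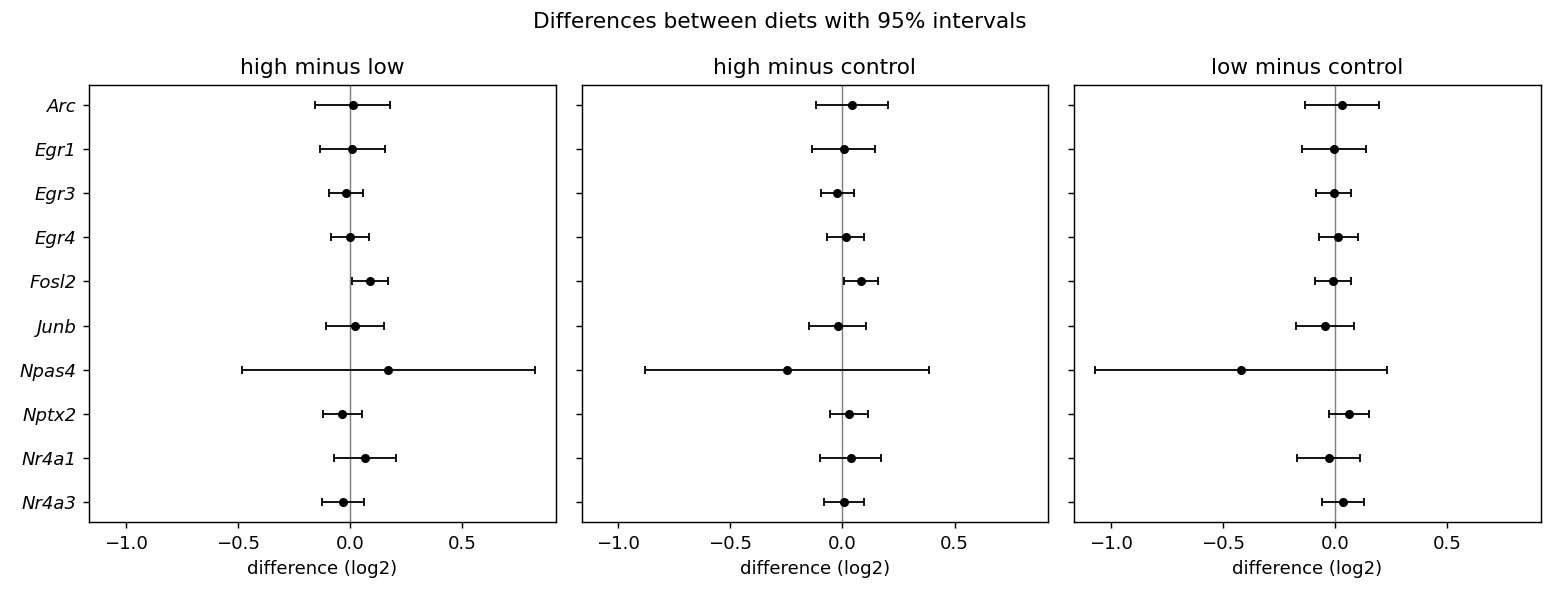
Difference between diets for each member (horizontal axis, log2, the same in the 3 panels). From left to right the panels give high minus low, then high minus control, then low minus control. Points are the fitted differences and bars their 95% intervals. The intervals of Fosl2 in both comparisons with the high diet lie above 0 before adjustment, and those of Npas4 are the widest.

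Among the AP-1 subunits, Fosl2 had the largest ratio of difference to error of any member. FOSL2 pairs with JUN proteins to form the AP-1 transcription factor. Its probe set 10940628 (chromosome 6, 30017952 to 30039269 in GRCr8) gave a lowest, median and highest value of 9.43, 9.60 and 9.73 log2 on the low diet, 9.55, 9.59 and 9.73 on the control diet and 9.53, 9.72 and 9.77 on the high diet. The diets overlapped. Of the 9 rats on the high diet, 8 exceeded the low mean and 3 exceeded all low-diet rats. The mean was 9.68 ± 0.09 on the high diet and 9.59 ± 0.10 on the low diet (SD, n = 9 and 8), a difference of +0.09 log2 (SE 0.039, 95% interval 0.0101 to 0.1701) or a ratio of 1.06. Its limma p was 0.029 before adjustment and 0.680 after. Against the control mean of 9.60 ± 0.06, the high diet differed by +0.08 (95% interval 0.0048 to 0.16, adjusted p = 1.00 to 3 digits). Low minus control was -0.0077. The second probe set of Fosl2, 10940647, gave means of 9.36, 9.36 and 9.44 on the low, control and high diets and correlated at r = 0.96 with the first over the 26 rats after diet means were taken off, so the 2 probe sets gave the same order.

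Markers of inhibitory interneurons varied with Fosl2 as a mean, while 0 of the 7 tested were called with it singly. Taken singly, 6 of the 7 had r above 0, with a median of 0.454. Over the 26 rats, with diet means taken off, Fosl2 and the mean of 7 interneuron markers (of 8 measured, Vip being below the filter) had a Pearson r of 0.715 (permutation p = 5e-05) and a Spearman rho of 0.723 (permutation p = 3e-05). After adjustment over the 130 relations of 10 members with 13 lists the p was 0.0065 for r and 0.0039 for rho. The r was 0.715 without the 2 rats farthest from the Fosl2 median and 0.672 without control rat 17. The mean of these markers lay between 10.53 and 10.65 on the low diet, 10.55 and 10.75 on the control diet and 10.60 and 10.73 on the high diet. For high minus low 6 of 7 markers were positive and 1 negative, while 55.2% of all tested genes were positive. The median of the markers was +0.074, against +0.0053 over all tested genes, and 0 were called. Gad1, which makes GABA, differed by +0.07 (SE 0.031, adjusted p = 0.680). What part these markers have in the Fosl2 values was not tested.

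Junb, the other AP-1 subunit, was set apart by 1 rat. Its values ran from 7.78 over a median of 8.04 to 8.30 on the low diet, from 7.92 over 8.02 to 8.49 on the control diet and from 7.94 over 8.05 to 8.14 on the high diet. The highest value of all, 8.49, was that of control rat 17, and the next control rat was at 8.12. High minus low was +0.02 (SE 0.063) and low minus control -0.04 (SE 0.063). High minus control was -0.02 with all rats and +0.03 without control rat 17.

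The EGR genes encode zinc finger transcription factors that bind GC-rich sites. Egr1, also known as Zif268, had values of 11.25 to 11.59 with a median of 11.44 on the low diet, 11.18 to 11.96 with a median of 11.38 on the control diet and 11.30 to 11.54 with a median of 11.46 on the high diet. Control rat 17 again gave the highest value, 11.96, while the next control rat was at 11.44. The means differed by +0.01 between high and low and by +0.0059 between high and control. With that rat left out high minus control was +0.07. Egr3 stayed within 0.245 log2 over all 26 rats, with low, control and high diet means of 10.08, 10.09 and 10.07. Egr4 averaged 7.80, 7.79 and 7.80 from low to high. The 95% intervals of high minus low were -0.1341 to 0.1546 for Egr1, -0.0946 to 0.0586 for Egr3 and -0.0871 to 0.083 for Egr4.

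Nr4a1 and Nr4a3 encode orphan nuclear receptors, which act without a known hormone. Nr4a1 had a lowest, median and highest value of 9.33, 9.45 and 9.91 on the low diet, 9.36, 9.57 and 9.79 on the control diet and 9.46, 9.61 and 9.78 on the high diet. The low diet held both the lowest and the highest rat, so it spanned the other diets. High minus low was +0.07 (95% interval -0.0741 to 0.2048), and 7 of 9 high-diet rats lay above the low mean. Nr4a3 had low, control and high diet means of 10.16, 10.12 and 10.13. Low rat 3 had the highest Nr4a3 value, 10.40, and the next low rat was at 10.20.

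Npas4 had the widest differences between diets and by far the widest errors. NPAS4 is a transcription factor of neurons that responds to calcium influx and takes part in the formation of inhibitory synapses. Its values (probe set 10727717, chromosome 1, 211710640 to 211728038 in GRCr8) ran from 7.01 over a median of 7.98 to 9.28 on the low diet, from 7.51 over 8.24 to 10.55 on the control diet and from 7.67 over 8.05 to 9.05 on the high diet. The groups overlapped along nearly their whole ranges. Low minus control was -0.42 (SE 0.32, 95% interval -1.07 to 0.23), high minus control -0.25 (SE 0.31) and high minus low +0.17 (SE 0.32). Without control rat 17, whose value of 10.55 is the highest of all, low minus control was -0.16 and high minus control +0.01.

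Arc and Nptx2 are the members that act at synapses. ARC moves AMPA receptors off the synaptic membrane, and NPTX2 is a secreted pentraxin that gathers them. Arc had a lowest, median and highest value of 9.89, 10.36 and 10.75 on the low diet, 10.18, 10.25 and 10.59 on the control diet and 10.15, 10.39 and 10.47 on the high diet. The low diet was the most spread, with an SD of 0.28, against 0.13 on the control diet and 0.10 on the high diet. High minus low was +0.01 (95% interval -0.1554 to 0.1772). Nptx2 had low, control and high diet means of 9.68, 9.61 and 9.64, and low minus control was +0.06 (95% interval -0.0258 to 0.1512), with 3 of 8 low-diet rats above every control rat. The difference between the SDs of Arc was not tested.

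**Figure D2:**
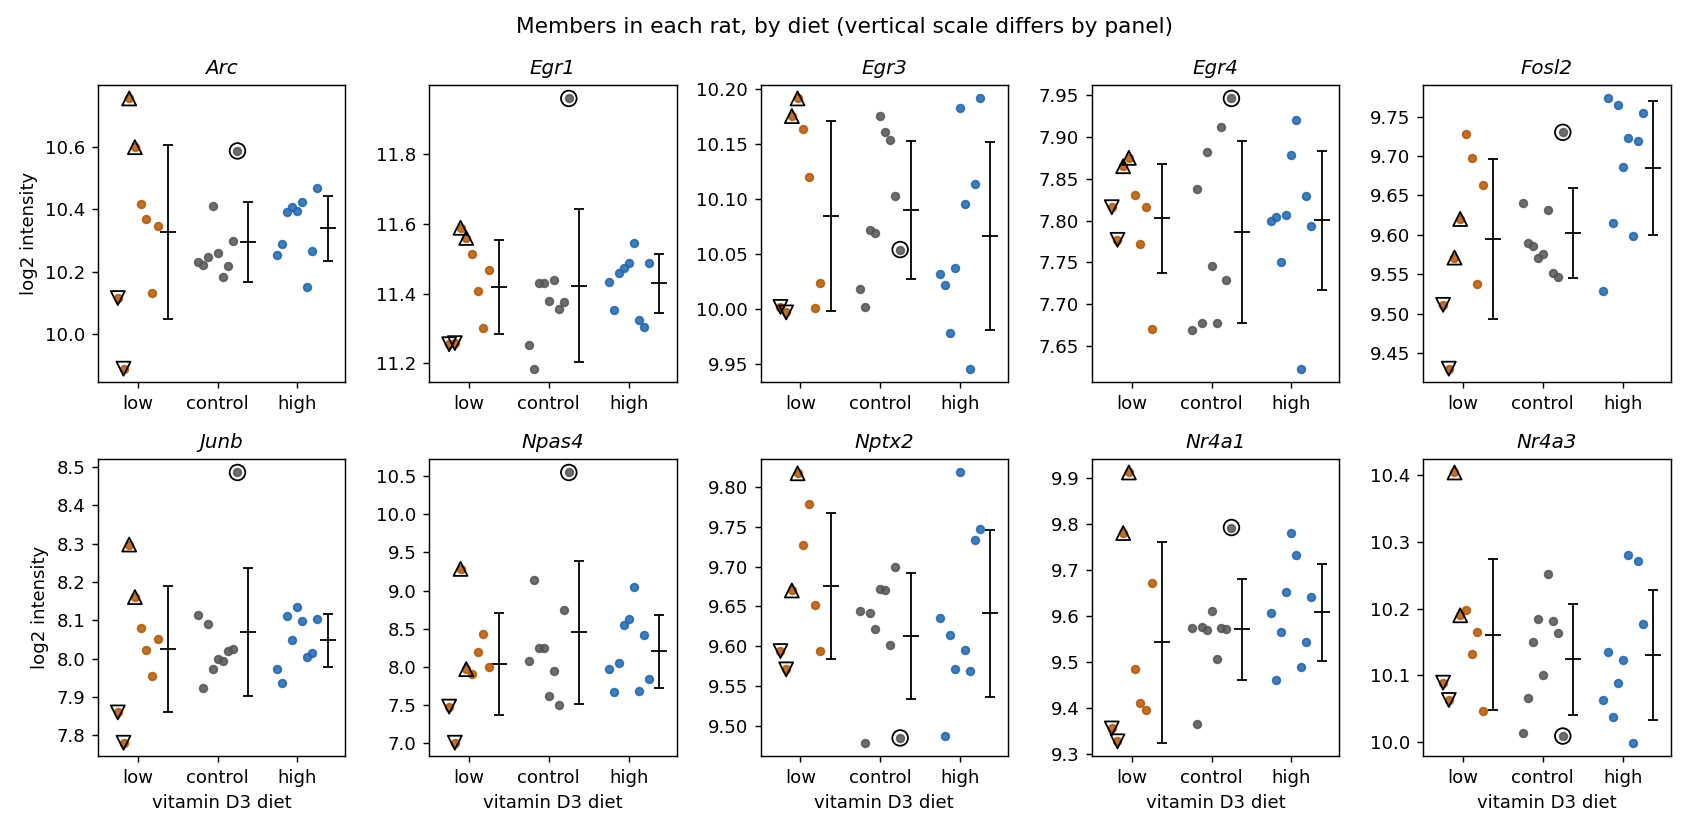
Log2 intensity (vertical axis, its scale differing by panel) of each member in each rat on the low, control and high diets. Points are rats, bars beside them the mean ± SD (n = 8, 9 and 9). The circle marks control rat 17, which is highest for Egr1, Junb, Npas4 and Egr4. Downward triangles mark cage Lo-4 and upward triangles cage Lo-5, which lie at the lower and the upper end of the low diet for Arc, Egr1, Junb and Nr4a1.

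The tail mark gave a comparison that holds no difference of diet. Between marked and unmarked rats 0 of 10 members were called at an adjusted p under 0.17, and 0% of all genes. At an unadjusted p under 0.05 there were 0 members, against 5.32% of all genes. Fosl2 came nearest, with marked minus unmarked at -0.06 (SE 0.030) and an adjusted p of 0.892 in limma. Cage mates differed in this mark, so the 12 cages with both rats were also compared within cages, with cage as a fixed block, a choice made after seeing the data. Again 0 members and 0% of all genes were called, and at an unadjusted p under 0.05 there were 0 members, against 5.88% of all genes. Nr4a1 came nearest, with marked minus unmarked at -0.07 (SE 0.034, adjusted p = 0.827) and the marked rat higher in 4 of 12 cages. For Fosl2 the difference was -0.05 (SE 0.029, adjusted p = 0.827).

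Relatives of the members were likewise not called by diet. Of 10 other AP-1, EGR and NR4A genes, 9 were measured and 3 (Jun, Jund and Nr4a2) passed the filter. None was called in any comparison, and Nr4a2, the remaining NR4A receptor gene, differed by +0.11 for high minus low (adjusted p = 0.680) and by +0.15 for high minus control (adjusted p = 0.921). Of 57 other activity-induced genes, 51 were measured and 40 tested, and 0 were called. For high minus low 22 were positive and 18 negative, with a median of +0.0079. For high minus control 30 were positive and 10 negative, with a median of +0.015, and for low minus control 27 and 13, with a median of +0.018. Over all tested genes 55.2%, 50.6% and 44.1% were positive in the same order, with medians of +0.0053, +0.0004 and -0.0043. High minus control and low minus control share the control rats. Inhba, the activin A subunit, differed by -0.16 for high minus low and by +0.15 for low minus control (adjusted p = 0.680 and 1.00). Of the kinases, channels and transcription factors upstream, 20 of 24 were measured and tested, with 0 called, and 16 of 20 were negative for high minus low, with a median of -0.029 against +0.0053 over all tested genes. Below the filter, Fos had means of 6.29, 6.29 and 6.28 on the low, control and high diets and Egr2 of 6.07, 6.13 and 6.12, and both were highest in control rat 17.

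Within a diet, 5 of the members varied between rats far more than most genes did. The SD between rats after diet means were taken off was 0.721 log2 for Npas4, which ranked 2 of 8485 genes, against a median of 0.0757 over all tested genes. The highest Npas4 value was 11.6-fold the lowest. Arc had an SD of 0.181, Egr1 of 0.156, Nr4a1 of 0.151 and Junb of 0.140, which placed them at the percentiles 98.2, 96.7, 96.2 and 94.5 of all tested genes. Nr4a3, Nptx2, Egr4, Fosl2 and Egr3 had SDs between 0.078 and 0.098, at percentiles between 53.3 and 76. The spread of 3 genes was smaller without control rat 17, with an SD of 0.104 for Egr1 (percentile 82.6), of 0.107 for Junb (percentile 84.4) and of 0.565 for Npas4 (percentile 99.9). For Arc and Nr4a1 it was 0.173 and 0.146 without this rat, at percentiles 98.3 and 96.2.

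Cage mates resembled each other in several members. The intraclass correlation of the 12 pairs of cage mates was 0.749 for Egr3, 0.697 for Arc and 0.623 for Nr4a1, at percentiles 98.4, 97 and 94.1 of all tested genes, whose median was 0.135. Junb (0.46) and Npas4 (0.45) followed, and Egr4 lay at the other end with -0.256. In cage Lo-4 the rats had Arc values of 10.12 and 9.89, the lowest of all 26, and in cage Lo-5 values of 10.75 and 10.60, the highest of all. Both cages ate the low diet, and they make up 4 of its 8 rats. The same cages had Nr4a1 values of 9.36 and 9.33 in Lo-4 and of 9.78 and 9.91 in Lo-5. For Egr3 the pairs were 10.00 and 10.00 in Lo-4 and 10.18 and 10.19 in Lo-5. Cages are nested in diets, and with cage as a random block 0 members were called by diet.

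**Figure D3:**
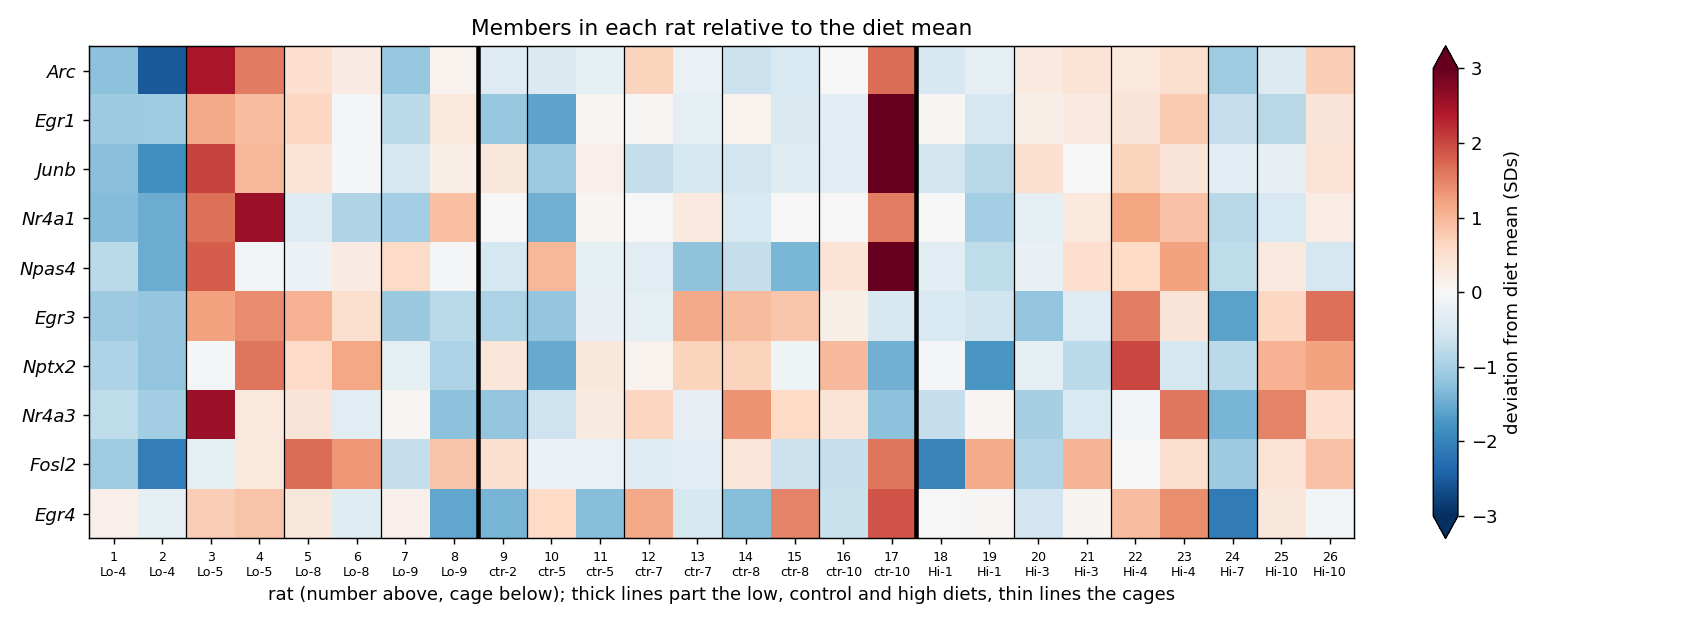
Deviation of each member (rows) from its diet mean in each rat (columns), in SDs of that member over the 26 rats, with the colours limited to 3 SDs either way. Thick lines part the low, control and high diets and thin lines the cages. The upper 5 rows share low values in rats 1 and 2 and high values in rat 17, and neighbouring cage mates share colours in Arc, Nr4a1 and Egr3.

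Some members varied together between rats. A member's value was added to the limma model beside diet and tested in the 8484 other genes, with calls at an adjusted p under 0.05. Of the 45 pairs of members 10 were called in at least 1 of the 2 fits of a pair, all positive. Arc called 3 members (Egr1, Junb and Nr4a1) and 0.0471% of all genes, Egr1 called 4 members (Arc, Junb, Npas4 and Nr4a1) and 0.495% of all genes, and Junb called 4 (Arc, Egr1, Npas4 and Nr4a1) and 0.153%. Nr4a1 called 3 (Arc, Egr1 and Junb), which were all the genes it called, or 0.0354%. Npas4 called Junb and 0.224% of all genes. Egr3 called Nptx2 and Nr4a3 and 0.813% of all genes, Nptx2 called Egr3 and 1.25%. Nr4a3 called 0 members and 0.0236% of all genes, and Egr4 and Fosl2 called 0 members and 0% of all genes.

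Arc, Egr1, Junb and Nr4a1 were linked in all 6 of their pairs. Correlations are over 26 rats with diet means taken off, permutation p values are 2-sided, and adjustment is over the 8484 genes tested against 1 member. Egr1 and Junb had r = 0.868 and rho = 0.766 (permutation p = 1e-05 for each, the smallest that 100000 permutations can give). The adjusted p of r was 0.0283 against Junb and 0.0848 against Egr1, and limma's adjusted p was at most 6.5e-05. At the smallest permutation p, the adjusted p is set by how many genes lie at or near it. It then does not measure the strength of r. Arc and Junb had r = 0.840 and rho = 0.765 (permutation p = 1e-05 for each, adjusted p = 0.0283 for r). Arc and Nr4a1 had r = 0.799 (permutation p = 1e-05, adjusted 0.0283 against Arc) and rho = 0.731 (permutation p = 7e-05). For these genes a rat high in 1 transcript tended to be high in the others. Junb and Nr4a1 had r = 0.782 and rho = 0.768 (permutation p = 1e-05 for each). Arc and Egr1 had r = 0.759 (permutation p = 3e-05, adjusted 0.0509 against Arc) and rho = 0.834 (permutation p = 1e-05). Egr1 and Nr4a1 had r = 0.739 (permutation p = 4e-05, adjusted 0.102 against Egr1) and rho = 0.770 (permutation p = 1e-05, adjusted 0.0283 against Egr1).

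Each of these 6 pairs was called in all 26 fits that left out 1 rat. Without the 2 rats farthest from the median of the first gene, r lay between 0.754 and 0.8 in the 6 pairs. With control rat 17 left out it lay between 0.751 and 0.861. Over the means of the 14 cages it lay between 0.746 and 0.879 (permutation p between 6e-05 and 0.00247). Within the low diet r was between 0.835 and 0.984 (exact permutation p between 4.96e-05 and 0.0091). Within the control diet it was between 0.757 and 0.885 (exact permutation p between 0.00659 and 0.0708), and within the high diet between 0.686 and 0.834 (exact permutation p between 0.00545 and 0.0437). Without cages Lo-4 and Lo-5, a choice made after seeing the data, 5 of the 10 called pairs were still called. Arc and Nr4a1 were among the pairs lost, while the other pairs of these 4 genes stayed called. Without these cages and control rat 17 together, with 21 rats, 0 pairs were called, and r of the 6 pairs was between 0.513 and 0.694.

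Npas4 was called with Egr1 and Junb, and both calls were lost without control rat 17. Junb and Npas4 had r = 0.727 (permutation p = 0.00013, adjusted 0.0606 against Npas4) and rho = 0.546 (permutation p = 0.00458). Egr1 and Npas4 had r = 0.645 (permutation p = 0.00129, adjusted 0.125 against Npas4) and rho = 0.458 (permutation p = 0.0197). Without control rat 17 r was 0.527 for Junb and Npas4 and 0.317 for Egr1 and Npas4. Without the 2 rats farthest from the median, r was 0.376 and 0.563 in the same order. The call of Egr1 and Npas4 was lost in 10 of the 26 fits that left out 1 rat, and also with centring, quality weights, no intensity filter, values over 2 SD removed or no moderation. That of Junb and Npas4 was lost in 1 of the 26, the fit without control rat 17, and with quality weights, values over 2 SD removed or no moderation. Arc and Npas4 had r = 0.641 and were not called, with 0.575 without control rat 17.

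Egr3 was called with Nptx2 and with Nr4a3, with and without control rat 17. Egr3 and Nptx2 had r = 0.748 (permutation p = 2e-05, adjusted 0.0131 against Egr3) and rho = 0.770 (permutation p = 1e-05). Egr3 and Nr4a3 had r = 0.666 and rho = 0.694 (permutation p = 0.00014 for each, adjusted 0.0283 for r against Egr3). In control rat 17, where Egr1, Junb and Npas4 were highest, Nptx2 was at 9.48 and Nr4a3 at 10.01, at or near the lowest of the control diet. Without this rat r was 0.757 for Egr3 and Nptx2 and 0.666 for Egr3 and Nr4a3. Without the 2 rats farthest from the Egr3 median it was 0.685 and 0.724, and over cage means 0.860 (permutation p = 0.00039) and 0.947 (permutation p = 1e-05). Limma's call of Egr3 and Nr4a3, at an adjusted p of 0.0457, was lost with cage as a random block and in 19 of the 26 fits that left out 1 rat. The call of Egr3 and Nptx2 was lost without low rat 4. Nptx2 and Nr4a3 themselves had r = 0.385 and were not called. Egr1 and Egr3 had r = 0.356 with all rats and were not called, but with control rat 17 left out r was 0.668 and the pair was called, as it was with values over 2 SD removed. The r of Arc and Egr3 was 0.529 with all rats and 0.608 without this rat, and that of Egr3 and Nr4a1 0.541 and 0.611.

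**Figure D4:**
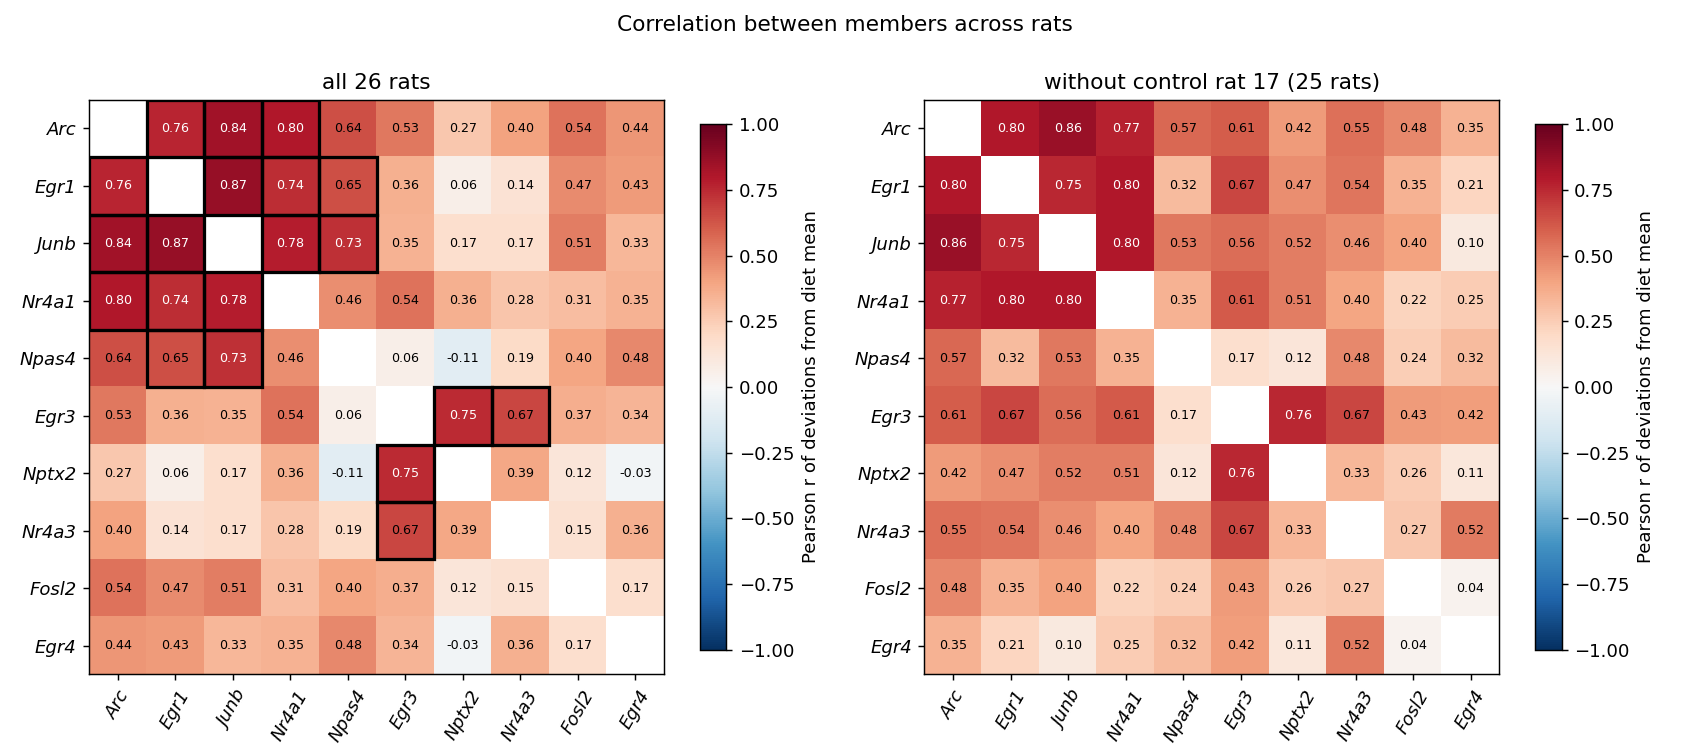
Pearson r between members over rats after diet means were taken off, for all 26 rats (left) and without control rat 17 (right), with colour and number both giving r. Black frames mark the 10 called pairs. Arc, Egr1, Junb and Nr4a1 form a block in both panels, while r of Npas4 with Egr1 is 0.645 on the left and 0.317 on the right.

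Egr4 and Fosl2 were in no called pair. Fosl2 had its highest r with Arc, 0.541 (permutation p = 0.00394, adjusted 0.146 against Fosl2), and Egr4 with Npas4, 0.482 (permutation p = 0.0121, adjusted 0.450 against Egr4). Over all 45 pairs r was above 0 in 43, with a median of 0.385 and a range of -0.106 to 0.868. Over all pairs of tested genes the median was 0.041 and the 95th percentile 0.46, and 18 of the 45 member pairs, or 40%, lay above that percentile. The members were chosen with earlier results of these data known, and the 45 pairs share genes and rats. The 40% is therefore a description and cannot serve as a test against all genes. All these values come from the same 26 arrays.

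**Figure D5:**
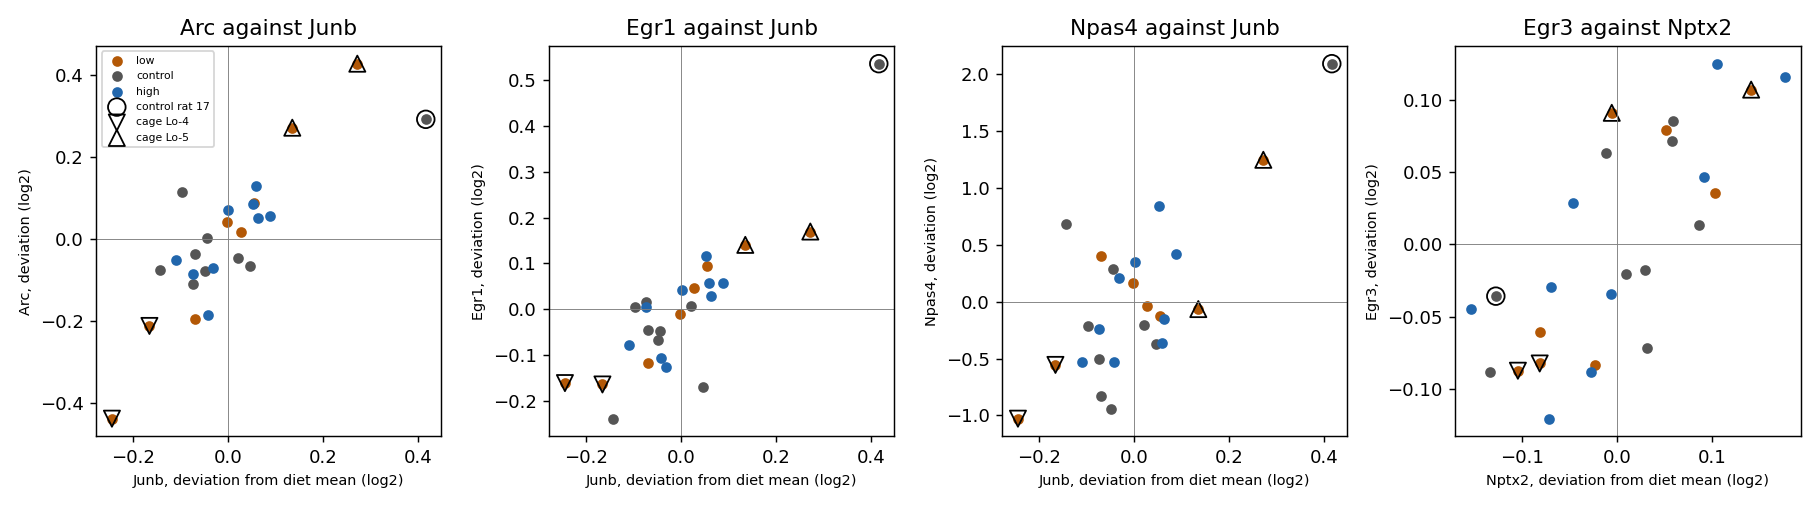
Deviations from the diet mean (log2, both axes) of Arc, Egr1 and Npas4 against Junb and of Egr3 against Nptx2, 1 point for each of 26 rats, coloured by diet. Control rat 17 is circled, and triangles mark cages Lo-4 (downward) and Lo-5 (upward). These 5 rats lie at or near the ends of the Arc and Egr1 panels, and control rat 17 lies alone at the upper right of the Npas4 panel.

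Among genes of the other lists, Nr4a3 was called with Bdnf, the activity-dependent neurotrophin. Their r was 0.787 (permutation p = 1e-05, adjusted 0.0424) and rho 0.780 (permutation p = 2e-05), with limma's adjusted p at 0.0141. Without control rat 17 r was 0.777, and without the 2 rats farthest from the Nr4a3 median it was 0.729. The call held in 24 of the 26 fits that left out 1 rat. Bdnf was the only called gene among the 40 tested activity-induced genes for Nr4a3, and the other gene called with Nr4a3 over the whole array was Phf21b (r = 0.826).

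Egr3 was called with 3 of the 20 upstream regulators, against 0.813% of all genes. They were Elk1, the partner of serum response factor (r = 0.750, rho = 0.758, permutation p = 3e-05 for each, adjusted 0.0134 for r), Grin1, the common subunit of NMDA receptors (r = 0.699, permutation p = 4e-05, rho = 0.735, permutation p = 3e-05), and Mef2d (r = 0.680, permutation p = 0.00024, rho = 0.670, permutation p = 0.00036). Without the 2 rats farthest from the Egr3 median r was 0.722, 0.711 and 0.685 in the same order. With cage as a random block none of the 3 was called, at adjusted p values of 0.0687, 0.0687 and 0.0829. The count of genes called with Egr3 was 69 with all rats, 12 with the cage block, and from 0 (without low rat 4) to 180 (without high rat 22) with 1 rat left out. In the 26 fits that left out 1 rat Elk1 was called in 13, Grin1 in 8 and Mef2d in 5. Over cage means r was 0.847 for Elk1, 0.787 for Grin1 and 0.798 for Mef2d (permutation p at most 0.0009).

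Of 13 tested genes that glucocorticoids induce, 3 were called with Npas4, all negative, against 0.224% of all genes, and the 3 calls were lost without control rat 17. They were Ddit4, an inhibitor of mTORC1 (r = -0.713, permutation p = 4e-05, rho = -0.599, permutation p = 0.00173), the kinase Sgk1 (r = -0.677, permutation p = 0.00039, rho = -0.471, permutation p = 0.0166) and the NF-κB inhibitor Nfkbia (r = -0.673, permutation p = 0.00019, rho = -0.588, permutation p = 0.00199). The adjusted p of r was 0.0485 for Ddit4, 0.0894 for Sgk1 and 0.0727 for Nfkbia. All 13 had r below 0, with a median of -0.353. For the mean of the 13 genes r was -0.636 (permutation p = 0.00041, adjusted 0.0178 over 130 relations), and rho was -0.467 (permutation p = 0.0171, adjusted 0.363). That r was -0.46 without the 2 rats farthest from the Npas4 median and -0.53 without control rat 17. Without control rat 17 r was -0.588 for Ddit4, -0.475 for Sgk1 and -0.548 for Nfkbia, and 0 genes were called with Npas4, where 19 were called with all rats. Without the 2 rats farthest from the Npas4 median r was -0.587, -0.432 and -0.524. The mean of the 13 genes ranged over 9.66 to 10.08 for low, 9.55 to 10.12 for control and 9.62 to 9.95 for high diet rats, and control rat 17 had the lowest value. Of 40 tested activity-induced genes 1 was called with Npas4, the factor Klf6, in the positive direction (r = 0.688, permutation p = 0.00014, rho = 0.494, permutation p = 0.0111). Its r was 0.492 without control rat 17.

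Nptx2 was called with 1 of 40 activity-induced genes and 1 of 20 upstream regulators, against 1.25% of all genes. They were Rasd1, a small G protein (r = 0.651, permutation p = 0.00033, rho = 0.698, permutation p = 0.00018), and Camk2b, a subunit of the calcium kinase CaMKII (r = 0.686, permutation p = 0.00016, rho = 0.612, permutation p = 0.00108). Nptx2 was also called with 1 of 6 cortex markers, Kcnip2 (r = 0.671, permutation p = 0.00012, rho = 0.698, permutation p = 7e-05). Without the 2 rats farthest from the Nptx2 median r was 0.655, 0.597 and 0.684. With control rat 17 left out it was 0.607, 0.651 and 0.632, and none of the 3 was called. The cortex markers did not share the direction of Kcnip2. Of the 6, 3 had r with Nptx2 above 0, with a median of -0.016. For the mean of the 6 cortex markers r with Nptx2 was -0.209 (permutation p = 0.305). The mean of the 6 tested CA1 markers, whose range was 10.49 to 10.67 for low, 10.31 to 10.65 for control and 10.21 to 10.63 for high diet rats, varied with Nptx2 at r = 0.644 (permutation p = 0.00013, adjusted 0.00845 over 130 relations). Its rho was 0.595 (permutation p = 0.00153, adjusted 0.0994), and r was 0.528 without the 2 farthest rats and 0.595 without control rat 17. Taken singly, 0 of the 6 CA1 markers were called with Nptx2, and 6 had r above 0, with a median of 0.51. What part CA1 content has in the Nptx2 values was not tested. The 106 genes called with Nptx2 came to 0 without control rat 17.

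Egr1 was called with 1 of 5 CA3 markers, against 0.495% of all genes. The marker was Cpne4, in the negative direction (r = -0.678, permutation p = 0.00424, rho = -0.342, permutation p = 0.0876). This r was -0.159 without control rat 17. The number of genes called with Egr1 was 42 with all rats and 3 without this rat, and for Junb 13 and 4. For Arc and Nr4a1 it was 4 and 3 both with and without the rat. Over all 26 fits that left out 1 rat the number was 3 to 5 for Arc and 1 to 3 for Nr4a1. It was 3 to 90 for Egr1, 4 to 53 for Junb, 0 to 121 for Npas4 and 0 to 174 for Nptx2, each lowest without control rat 17. The highest counts came without high rat 19 for Egr1, low rat 3 for Junb and Npas4 and control rat 10 for Nptx2.

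Among all other genes, C8h11orf87 was most like the members as a group. Likeness was the r, over 26 rats with diet means taken off, between a gene and the mean of the 10 scaled members, and it is a description. C8h11orf87 had r = 0.797 (0.809 without control rat 17) and was called with 2 members, Arc among them. Akt2, a kinase of insulin signalling, had 0.736, Fuz 0.725, Pkig, an inhibitor of protein kinase A, 0.722, and Rbm14, a nuclear coactivator, 0.702. Slc9a3, Fam163b, Zmat4, Trim9 and Spag9 followed with r between 0.675 and 0.697. The lowest r belonged to Rgs16, a regulator of G protein signalling (-0.743), Jag2, a Notch ligand (-0.697), and the thiamine transporter gene Slc19a3 (-0.667). Of the members, Arc was most like the group mean, which includes it, with r = 0.906, and Nptx2 least, with 0.433.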

How the data were processed

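Hippocampal RNA of 26 rats was measured on 1 array each, with 8, 9 and 9 arrays from the low, control and high diets. The deposited table holds log2 values of 29214 probe sets made by the authors, and the submitters' processing notes name Partek 6.6 and GCRMA without their roles. Since array medians differed by little (6.92 to 6.96), the values were used as deposited. A gene was the probe set of highest mean with that single symbol, and 8485 genes with a mean of at least 6.94, the median of all probe sets, were tested. Limma 3.58.1 in R 4.3.3 was fitted with diet over all arrays, and again with a member's value beside diet for covariation. Tests were 2-sided, with Benjamini-Hochberg adjustment over all tested genes. The procedure was also run on simulated data with independent noise for each gene and rat. Likeness of cage mates and outlying arrays were not simulated, so that run cannot show how the calls behave under them. Correlations used 100000 permutations, and within a diet all permutations. Tests and correlations take rats as independent. Correlations over cage means are given for the pairs among Arc, Egr1, Junb and Nr4a1 and for Egr3 with Nptx2, Nr4a3, Elk1, Grin1 and Mef2d. They are not given for other relations, among them those with the means of gene lists. The members and the gene lists were chosen with earlier results of these data known. Named were all members, called genes of the lists (filled up to 2 by p) and the 10 genes most and 3 least like the members.
Whether diets were balanced over RNA extraction or scanning is not given in the sources used here.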

Additional observations from a re-analysis of the deposited data

Results flagged for a closer look

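In 3 of 30 groups (10 members on 3 diets) the highest or lowest rat lay farther from the others than Dixon's 95% criterion allows, and chance flags about 1 group in 20. On the control diet rat 17 had 11.958 log2 for Egr1, 0.52 above the next rat, a gap of 0.673 of the group's range. The same rat had 8.486 for Junb, 0.371 above the next, a gap of 0.661 of the range. On the low diet rat 3 had 10.404 for Nr4a3, 0.206 above the next, a gap of 0.575 of the range.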

How the results depend on the processing

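Under every alternative, 0 members were called in the F-test or in any of the 3 comparisons of diets: array quality weights, centring on array medians, no intensity filter, quantile normalization, a random block for cage, values over 2 SD removed, tests without moderation, the tail mark as a covariate, the mean of all probe sets, each rat left out, and the 2 settings chosen after seeing the data, without cages Lo-4 and Lo-5 and without these and control rat 17. Over all genes, 0 were called as reported. The F-test called 17 with values over 2 SD removed, 1 without control rat 17 and both cages, and 0 to 3 with 1 rat left out. High minus control gave 15, 1 and 0 to 1 under the same settings. High minus low gave 30 with values over 2 SD removed, 1 with quantile normalization, 1 with centring, 1 with the tail mark and 0 to 3 with 1 rat left out. Of the 45 member pairs 10 were called as reported. There were 10 with quantile normalization, the tail mark or the mean of all probe sets, 9 with the cage block, 8 with centring, quality weights, no intensity filter or values over 2 SD removed, and 7 without moderation. In these settings the lost pairs were among Egr1 and Npas4, Egr3 and Nr4a3, and Junb and Npas4, and Egr1 and Egr3 were gained with values over 2 SD removed. The number was 8 to 11 with 1 rat left out, 5 without cages Lo-4 and Lo-5 and 0 without these and control rat 17, where r of Egr1 and Npas4 was -0.066.

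Some differences changed sign, none of them called, and the cause was not tested. With centring, low minus control was 0.0014 for Egr1 and 0.0000 for Egr3, and high minus low was 0.0049 for Egr4. With quality weights, high minus low was -0.0144 for Arc, low minus control 0.0472 for Egr1, 0.0037 for Egr3 and 0.0104 for Nr4a1, and high minus control 0.0187 for Junb and -0.0012 for Nr4a3. With values over 2 SD removed, low minus control was 0.0626 for Egr1, 0.0083 for Fosl2 and 0.0083 for Junb, high minus control 0.0298 for Junb and 0.0149 for Npas4, and high minus low 0.0012 for Egr4 and 0.0044 for Nr4a3. With 1 rat left out, high minus low ran from -0.0516 to 0.0719 for Arc, -0.0132 to 0.0344 for Egr1, -0.021 to 0.0201 for Egr4, -0.0135 to 0.0603 for Junb and -0.049 to 0.0044 for Nr4a3. High minus control ran from -0.0239 to 0.0728 for Egr1, -0.0009 to 0.0362 for Egr4, -0.0404 to 0.0298 for Junb, -0.3651 to 0.0149 for Npas4 and -0.0125 to 0.0226 for Nr4a3. Low minus control ran from -0.0284 to 0.0951 for Arc, -0.0341 to 0.0626 for Egr1, -0.021 to 0.0067 for Egr3, -0.0267 to 0.0159 for Fosl2, -0.0826 to 0.0083 for Junb and -0.0814 to 0.0024 for Nr4a1. The diets could not be compared in pairs because no rat number is shared between diets. Cage mates were paired for the tail mark, with 0 members called either way, and marked minus unmarked of Egr4 was 0.0010 within cages and -0.0037 over all rats.

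Limits are these. The 26 rats came from 14 cages nested in diets, as read from a label in the array descriptions. That this label is the cage is not stated outright there, so all results on cages rest on this reading. The consensus correlation of cage mates was 0.136. Members with a wide spread, Npas4 above all, leave wide intervals. Pairs were read from the same arrays as the diets.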
